A study of Homo sapiens with 4 samples.

Results

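Nascent transcription of 9 genes of the epidermal growth factor (EGF) family was measured in HCT116 cells with a degradable cohesin subunit, with and without the agent that triggers its degradation. The members were the rows of the deposited table whose gene symbol was EPGN, EREG, AREG, BTC, HBEGF, TGFA, EGFR, ERBB2 or ERBB3, and each symbol matched exactly 1 of the table's 60048 genes. They were taken in 3 classes: the 4 ligands that lie side by side at 4q13 (EPGN, EREG, AREG and BTC), the 2 ligands encoded elsewhere (HBEGF and TGFA), and 3 receptors (EGFR, ERBB2 and ERBB3). All 9 passed the filter on low values.

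The EGF-family ligands are made as membrane-anchored precursors and are cut free at the cell surface by ADAM proteases. They bind receptor tyrosine kinases of the ERBB family, which pair with each other and signal through the RAS-MAPK and PI3K pathways. AREG and TGFA bind EGFR, whereas EREG, BTC and HBEGF can also engage ERBB4. ERBB2 has no known ligand of its own and acts as a partner, and ERBB3 has a weak kinase and signals mainly in pairs with ERBB2. In colorectal epithelium the family drives growth, and AREG and EREG are widely measured in colorectal tumours treated with antibodies against EGFR.

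HCT116 is a human colorectal carcinoma line. All 4 libraries came from cells of the genotype RAD21-mAC, in which RAD21, a core subunit of the cohesin ring, carries a degron tag that leads to its destruction once auxin is added. The control group was given DMSO (2 libraries) and the auxin group 0.5 mM indole-3-acetic acid for 3 h (2 libraries). In both, new RNA was labelled with 0.5 mM 5-ethynyl uridine (EU) for 20 min, captured and sequenced. No untagged cells given auxin are among these libraries, so loss of RAD21 and an effect of the auxin compound itself cannot be told apart. The labels do not say that replicates came from separate cultures, so p-values here measure the spread between these libraries, which may be technical.

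Each value below is the authors' scaled signal of a gene, which the table lists with its span from start to end, after a further scaling between libraries by trimmed means of M-values that divided the 4 libraries by 0.816 to 1.21. How many reads lie behind a value is unknown. Log2 fold changes are auxin over control on the scale log2(scaled signal + 1), and a gene is called where limma's adjusted p, over 39464 genes tested, is under 0.05. By that rule 289 genes, 0.732% of those tested, were called. Of the 10.2 degrees of freedom behind each p and interval, 8.23 come from limma's prior. That prior is a trend of spread over all genes, so a gene's own libraries add the smaller part. The 7 epithelial markers examined (EPCAM, CDH1, KRT8, KRT18, KRT19, VIL1 and CDX2) had signal in every library, from 683 to 25008, and their sum was 59061 to 65325 in control and 58246 to 60444 in auxin. Within that sum CDH1 was higher in both auxin libraries (11059.9 and 11199 against 16109 and 16554; limma, adjusted p = 0.0578), while EPCAM, KRT8, KRT18, KRT19 and VIL1 were lower in both. CDX2 overlapped between the groups (1782 and 1211 in control, 2195 and 1771 in auxin), with a log2 fold change of 0.42. The leukocyte markers PTPRC, CD3E and CD68 summed to 1032 to 1072 in control and 1024 to 1074 in auxin, nearly all of it CD68. The fibroblast markers COL1A1, COL1A2 and DCN summed to 596 to 758 and 919 to 1024, nearly all of it COL1A1, and COL1A2 was at 0 in 1 control library. The endothelial markers PECAM1, VWF and CDH5 summed to 581 to 649 and 680 to 819. The part of these markers in the results below was not tested.

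The 4 clustered ligand genes occupy 486 kb of GRCh38 chromosome 4, from 74308470 to 74794523, in the order EPGN, EREG, AREG and BTC. EPGN (ENSG00000182585, 74308470 to 74316789), EREG (ENSG00000124882, 74365145 to 74388749) and AREG (ENSG00000109321, 74445136 to 74455005) are on the plus strand. BTC (ENSG00000174808, 74744759 to 74794523) is on the minus strand. The gaps between neighbours are 48.4 kb, 56.4 kb and 290 kb. None of the 4 overlaps another gene of the table. The 250 bases before their RefSeq starts are shown because BTC was called with auxin while EREG, in the same stretch, was not. Each is written 5′ to 3′ on the strand of its gene, with matches to the searched motifs in capitals.
EPGN, chr4:74308220-74308469, plus strand: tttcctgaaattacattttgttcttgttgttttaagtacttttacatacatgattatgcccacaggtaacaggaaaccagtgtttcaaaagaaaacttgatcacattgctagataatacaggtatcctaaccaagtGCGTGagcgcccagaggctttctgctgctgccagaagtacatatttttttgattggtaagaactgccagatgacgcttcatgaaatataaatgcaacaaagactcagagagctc
EREG, chr4:74364895-74365144, plus strand: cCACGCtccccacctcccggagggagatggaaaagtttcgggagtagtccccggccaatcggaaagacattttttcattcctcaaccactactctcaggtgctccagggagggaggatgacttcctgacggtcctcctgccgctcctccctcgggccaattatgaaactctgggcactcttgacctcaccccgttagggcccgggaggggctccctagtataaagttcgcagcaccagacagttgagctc
AREG, chr4:74444886-74445135, plus strand: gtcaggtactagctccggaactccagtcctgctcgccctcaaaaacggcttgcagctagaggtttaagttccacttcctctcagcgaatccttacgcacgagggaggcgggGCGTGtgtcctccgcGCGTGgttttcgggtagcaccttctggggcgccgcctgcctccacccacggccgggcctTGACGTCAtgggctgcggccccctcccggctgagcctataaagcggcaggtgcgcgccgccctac
BTC, chr4:74794524-74794773, minus strand: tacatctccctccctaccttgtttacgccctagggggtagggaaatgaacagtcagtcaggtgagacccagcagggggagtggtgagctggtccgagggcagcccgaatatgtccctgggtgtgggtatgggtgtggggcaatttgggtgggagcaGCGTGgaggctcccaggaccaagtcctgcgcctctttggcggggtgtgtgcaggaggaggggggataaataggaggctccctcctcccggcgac

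These windows came from RefSeq on GRCh38.p14, and their starts are the same bases as in the deposited table. On both strands 4 motifs were searched: TGACGTCA for the cyclic AMP response element (CRE), GCGTG for the core of the aryl hydrocarbon receptor (AHR) element, a core of the CTCF site that is 14 letters long, and the AP-1 site, TGA and TCA with any base between. No 2 of these matches overlapped in the windows shown. Of the members with a window AREG alone had a CRE match, TGACGTCA from 65 to 58 bases before its start, and 1.65% of 35116 promoter windows of the same length hold one. AREG also held 2 matches to GCGTG, and EPGN, EREG, BTC and a window of TGFA held 1 each, with that of EREG read from the opposite strand. That motif occurs in 32.2% of all windows, so a match is common. AP-1 matches (6.57% of all windows) were found in ERBB2 and in the second of 2 windows of EGFR, and the CTCF core (0.0968%) in none of the members with a window. That EGFR window precedes base 55109839, which lies inside the gene as listed, from 55019017. The ERBB2 window precedes base 39688094, against a listed start of 39687914. The TGFA window with a match precedes base 70553446, against a listed start of 70553826. The GC content was 38.0% for EPGN, 58.0% for EREG, 65.2% for AREG and 62.0% for BTC. Of the 9 members 8 had a promoter window, ERBB3 being the exception.

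Auxin against control asked whether the clustered ligands, which share a stretch of chromosome, moved together in cells treated to deplete cohesin. Their values differed in size and direction, a difference not itself tested: BTC fell to 0.445 of its control signal, AREG and EPGN were lower in both auxin libraries without passing the threshold, and EREG, which lies between EPGN and AREG, overlapped between the groups. BTC was the one of 9 members called, and was lower, where 0.4% of all tested genes were called lower and 0.332% higher. The members were listed with earlier results of these data known, so their share is given as a description.

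BTC encodes betacellulin, a ligand of EGFR and ERBB4. Its scaled signal was 557 and 515 in control and 266 and 212 in auxin. Both auxin libraries lay below both control libraries, with a gap wider than the distance between replicates. The means were 536 ± 29.8 and 239 ± 37.9 (SD, n = 2 each), which is a log2 change of -1.17 with a standard error of 0.22 (95% interval -1.65 to -0.69, limma adjusted p = 0.0423). Taken library by library, the 4 log2 differences of auxin from control ran from -1.39 to -0.95. The direction held in all 12 alternatives tried, from -1.32 to -1.01, but the call did not: 7 of the 12 left BTC over the threshold. These were scaling by library size only (adjusted p = 0.0609), the deposited scale (0.65), no filter (0.056), a mean of at least 50 (0.055), and leaving out control replicate 1 (0.0967), control replicate 2 (0.098) or auxin replicate 2 (0.13). The fit on the deposited scale used 1 trend of spread for all genes, unlike the main fit. So did those with the replicate block, without auxin replicate 1 and without auxin replicate 2, and calls in them rest on that trend. In bulk RNA, fewer cells transcribing a gene and less transcription per cell cannot be told apart.

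AREG encodes amphiregulin, a heparin-binding ligand of EGFR. Its scaled signal was 6946 and 10982 in control and 4433 and 6487 in auxin. The groups did not overlap, but the higher auxin library was close to the lower control library. The means were 8964 ± 2854 and 5460 ± 1453 (SD, n = 2 each), which is a log2 change of -0.70 (SE 0.23, 95% interval -1.21 to -0.20, limma adjusted p = 0.255, unadjusted p = 0.0108). Single libraries moved this value: leaving out control replicate 1 gave -1.02 and control replicate 2 gave -0.37, while leaving out auxin replicate 1 gave -0.42 and auxin replicate 2 gave -0.98, the last with a limma adjusted p of 3.62e-04. That fit has 1 auxin library, assumed to vary like the controls, and a spread that follows 1 trend shared by all genes, so its p is not a replicated test of AREG.

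EREG encodes epiregulin, a ligand of EGFR and ERBB4. Its scaled signal was 20507 and 32331 in control and 26959.7 and 30337.5 in auxin. Both auxin libraries lay between the control libraries. The means were 26419 ± 8360.5 and 28649 ± 2388 (SD, n = 2 each), and the log2 fold change was 0.15 (SE 0.18, 95% interval -0.25 to 0.55, limma adjusted p = 0.899). Its sign turned, to -0.17, without control replicate 1, and it was 0.48 without control replicate 2.

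EPGN encodes epigen, a low-affinity ligand of EGFR. Its scaled signal was 153 and 131 in control and 103 and 88.7 in auxin, and both auxin libraries were the lower ones. The means were 142 ± 15.9 and 95.6 ± 9.80 (SD, n = 2 each), which is a log2 change of -0.57 (SE 0.27, 95% interval -1.16 to 0.03, limma adjusted p = 0.519, unadjusted p = 0.0596).

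**Figure D1:**
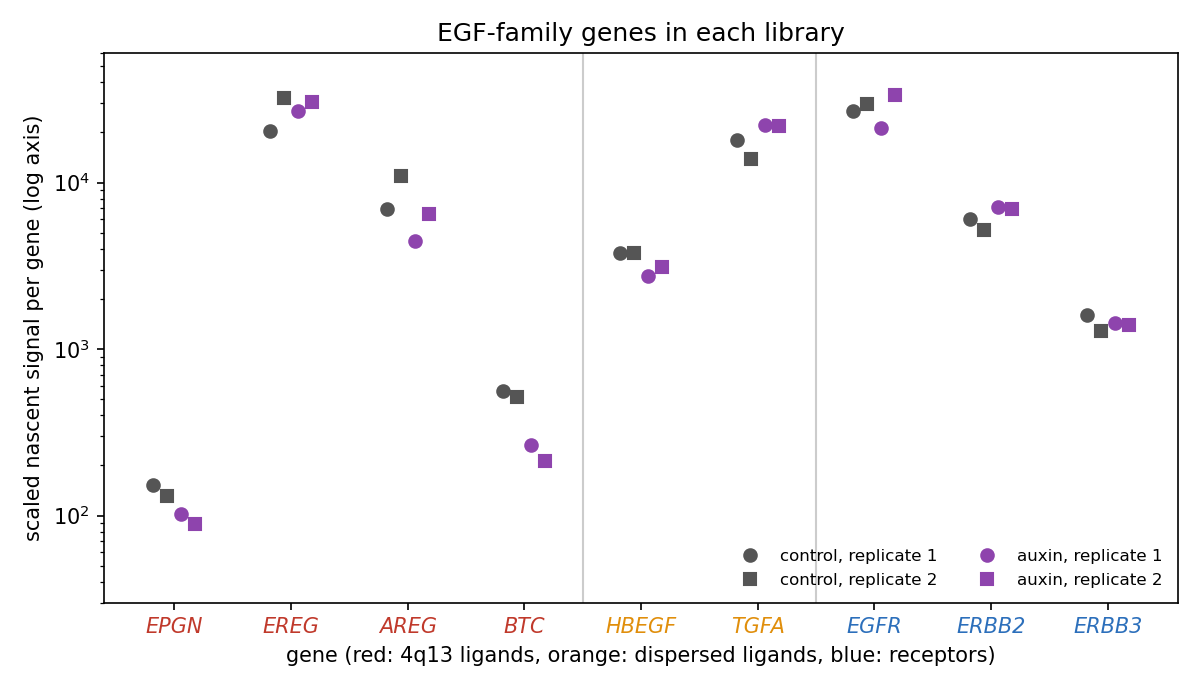
Scaled nascent signal (vertical log axis) of each of the 9 genes in each of the 4 libraries (points), with the 4q13 ligands, dispersed ligands and receptors set apart by vertical lines. The auxin points of EPGN, AREG, BTC and HBEGF all lie below the control points, and those of TGFA and ERBB2 above them. Those of EREG and ERBB3 lie between the control points, and those of EGFR on either side of them.

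Both dispersed ligands had groups that did not overlap, as in 38.2% of all tested genes. They differed in opposite directions, and neither was called. HBEGF encodes heparin-binding EGF-like growth factor (ENSG00000113070, GRCh38 chromosome 5, 140332843 to 140346603, minus strand). Its scaled signal was 3751 and 3785 in control and 2739 and 3090.3 in auxin, so both auxin libraries were lower. The means were 3768 ± 24.7 and 2915 ± 249 (SD, n = 2 each), which is a log2 change of -0.37 (SE 0.14, 95% interval -0.69 to -0.05, limma adjusted p = 0.378, unadjusted p = 0.0266).

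TGFA encodes transforming growth factor alpha, a ligand of EGFR (ENSG00000163235, GRCh38 chromosome 2, 70447284 to 70553826, minus strand). Its scaled signal was 17996 and 13875 in control and 22159 and 21969 in auxin. Both auxin libraries were higher than both controls and lay close to each other. The means were 15936 ± 2915 and 22064 ± 134 (SD, n = 2 each), which is a log2 change of 0.48 (SE 0.13, 95% interval 0.19 to 0.78, limma adjusted p = 0.175, unadjusted p = 0.00444). Without control replicate 1, the control nearer to the auxin values, the log2 fold change was 0.68 (adjusted p = 0.0368), and without control replicate 2 it was 0.29. Each of these fits has 1 control library, assumed to vary like the auxin pair, so that p is not a replicated test. The lncRNA gene TGFA-IT1 lies inside TGFA and covers 1111 bases of its span. Its log2 fold change was 0.52 (limma adjusted p = 0.614), and the table is not stated to separate genes that overlap.

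Of the receptors, none was called, and ERBB2 alone had groups that did not overlap, as in 38.2% of all tested genes. EGFR (ENSG00000146648, GRCh38 chromosome 7, 55019017 to 55211628, plus strand) showed scaled signals at 26798 and 29801 in control and 21385 and 33612.5 in auxin. Its auxin libraries lay on either side of the control libraries. The means were 28299 ± 2124 and 27499 ± 8646 (SD, n = 2 each), and the log2 fold change was -0.08 (SE 0.18, 95% interval -0.47 to 0.32, limma adjusted p = 0.968). It was 0.26 without auxin replicate 1 and -0.40 without auxin replicate 2, so its sign rested on single libraries. The antisense gene EGFR-AS1, on the minus strand inside EGFR, covers 4.77% of its span and had a log2 fold change of 0.01 (limma adjusted p = 0.997). EGFR-AS1 had the same order of libraries as EGFR, and the signals of overlapping genes are not stated to be separate.

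ERBB2 (ENSG00000141736, GRCh38 chromosome 17, 39687914 to 39728361, plus strand) showed scaled signals at 6063 and 5197 in control and 7152 and 6905 in auxin. Both auxin libraries were above both controls. The means were 5630 ± 613 and 7029 ± 175 (SD, n = 2 each), which is a log2 change of 0.32 (SE 0.13, 95% interval 0.03 to 0.62, limma adjusted p = 0.428, unadjusted p = 0.0361). On the deposited scale the groups of ERBB2 overlapped. Its span shares 144 bases with PGAP3 on the other strand and contains MIR4728.

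ERBB3 (ENSG00000065361, GRCh38 chromosome 12, 56080165 to 56103505, plus strand) showed scaled signals at 1598 and 1290.4 in control and 1425 and 1386 in auxin. The auxin libraries lay between the controls, and the log2 fold change was -0.03 (SE 0.17, 95% interval -0.42 to 0.36, limma adjusted p = 0.989). It turned to 0.13 without control replicate 1. The gene AC034102.2 overlaps the last 2175 bases of ERBB3 (9.32% of its span), with a log2 fold change of -0.32 (limma adjusted p = 0.502). AC034102.2 runs from 56101331 to 56109289 on the plus strand. It thus also overlaps the next gene, PA2G4, which starts at 56104559 on the same strand.

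Across the 9 members, 4 had both auxin libraries below both controls, where 19.6% of all tested genes did, and 2 had both above, where 18.6% did (6 against 38.2% in either direction). On the deposited scale AREG and ERBB2 overlapped. At an unadjusted p under 0.05 there were 5 members (AREG, BTC and HBEGF lower, TGFA and ERBB2 higher), where 10.2% of tested genes passed, 4.75% higher and 5.47% lower. All members have a mean of at least 50. Among the 29158 tested genes that do, 0.988% were called, 12.3% passed the unadjusted p and 40.4% had groups that did not overlap. The median log2 fold change was -0.64 for the 4 clustered ligands and -0.03 for the 5 dispersed members, against 0.0089 for all tested genes. Scaling by trimmed means places the bulk of genes near 0, so the last value is set by it. Changes are relative to that bulk, and a change shared by most genes would not show. The median of the clustered ligands was below 0 whichever auxin library was set against whichever control library, from -0.66 to -0.44. That of the dispersed members was -0.17 in the pair of replicate 1 libraries and 0.14 to 0.19 in the other pairs. Whether the classes differ was not tested, since a score over listed members has no independent test here, and the clustered class spans -1.17 to 0.15.

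**Figure D2:**
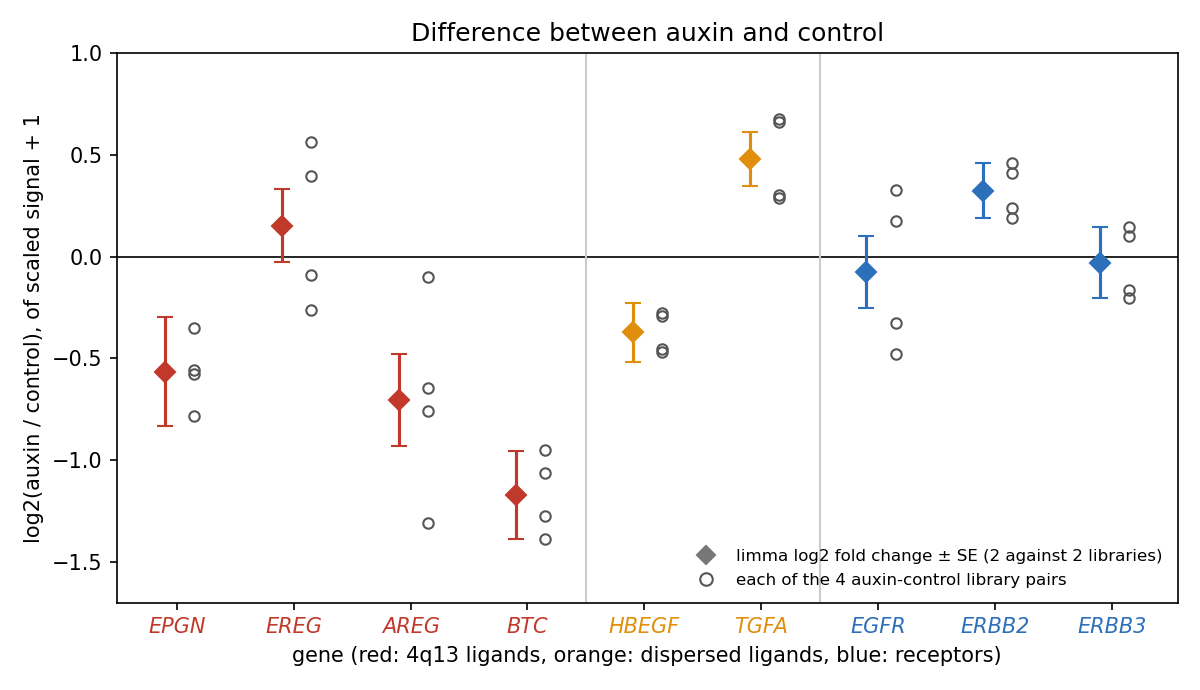
Limma log2 fold change of auxin over control (diamonds, bars ± SE, 2 against 2 libraries) and the 4 differences between single auxin and control libraries (open circles) for each gene, on the scale of log2(scaled signal + 1). BTC has the lowest value (-1.17) and TGFA the highest (0.48), and the circles of EREG, EGFR and ERBB3 fall on both sides of 0.

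Levels of different genes were compared as scaled signal per kb of span. In control, EREG (1119 ± 354) and AREG (908 ± 289) had the highest signal per kb, and their ranges over libraries overlapped. HBEGF followed at 274 ± 1.79, apart from both neighbours in this order. TGFA (150 ± 27.4), EGFR (147 ± 11.03) and ERBB2 (139 ± 15.2) overlapped in turn (SD, n = 2 each). ERBB3 stood at 61.9 ± 9.32, EPGN at 17.1 ± 1.91 and BTC at 10.8 ± 0.60, each apart from the gene before it. The 4q13 ligands thus held both ends of the order, EREG and AREG at the top and EPGN and BTC at the bottom, within 486 kb.

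With auxin the order of signal per kb kept EREG first (1214 ± 101) and AREG next (553 ± 147), and the ranges of these neighbours no longer overlapped. HBEGF (212 ± 18.1) and TGFA (207 ± 1.26) overlapped with each other. ERBB2 (174 ± 4.33) overlapped with EGFR (143 ± 44.9), and ERBB3 (60.2 ± 1.19), EPGN (11.5 ± 1.18) and BTC (4.802 ± 0.761) again came last (SD, n = 2 each). Together the 4 clustered ligands summed to 36061 ± 11169 in control against 34443 ± 3794 in auxin (SD, n = 2 each), a sum set mainly by EREG. EREG made up 72.8% and 73.5% of it in control and 84.9% and 81.7% in auxin. The share of AREG was 24.7% and 25.0% in control and 13.96% and 17.5% in auxin.

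A ratio of 2 genes within 1 library does not depend on how libraries were scaled to each other. All 10 pairs of members within a class were formed on the deposited values, a measure chosen after the values above were seen. The pairs share genes, and how often ratios of other genes separate was not measured, so they are given as a description. With 2 libraries a group no exact permutation test of such a ratio can give a two-sided p below 0.333. The ratio of AREG to EREG, neighbours 56.4 kb apart, was 0.339 and 0.340 in control and 0.164 and 0.214 in auxin. The control ratios were nearly equal although each gene alone differed by 0.66 on the log2 scale between the control libraries. On the log2 scale the auxin mean was different by -0.86, with an SD of 0.0029 in control and 0.27 in auxin (n = 2 each).

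The ratio of BTC to EREG was 0.0272 and 0.0159 in control and 0.00986 and 0.00700 in auxin, lower in both auxin libraries. EPGN to EREG was 0.00748 and 0.00405 in control and 0.00380 and 0.00292 in auxin, again lower, with one auxin library near a control. EPGN to BTC was 0.275 and 0.254 in control and 0.386 and 0.418 in auxin, higher in both auxin libraries. The ratios of BTC and of EPGN to AREG overlapped between the groups. TGFA to HBEGF was 4.798 and 3.67 in control and 8.09 and 7.11 in auxin, higher in both auxin libraries. Among the receptors, ERBB3 to ERBB2 was 0.264 and 0.248 in control and 0.199 and 0.201 in auxin, while the ratios of ERBB2 and ERBB3 to EGFR overlapped.

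**Figure D3:**
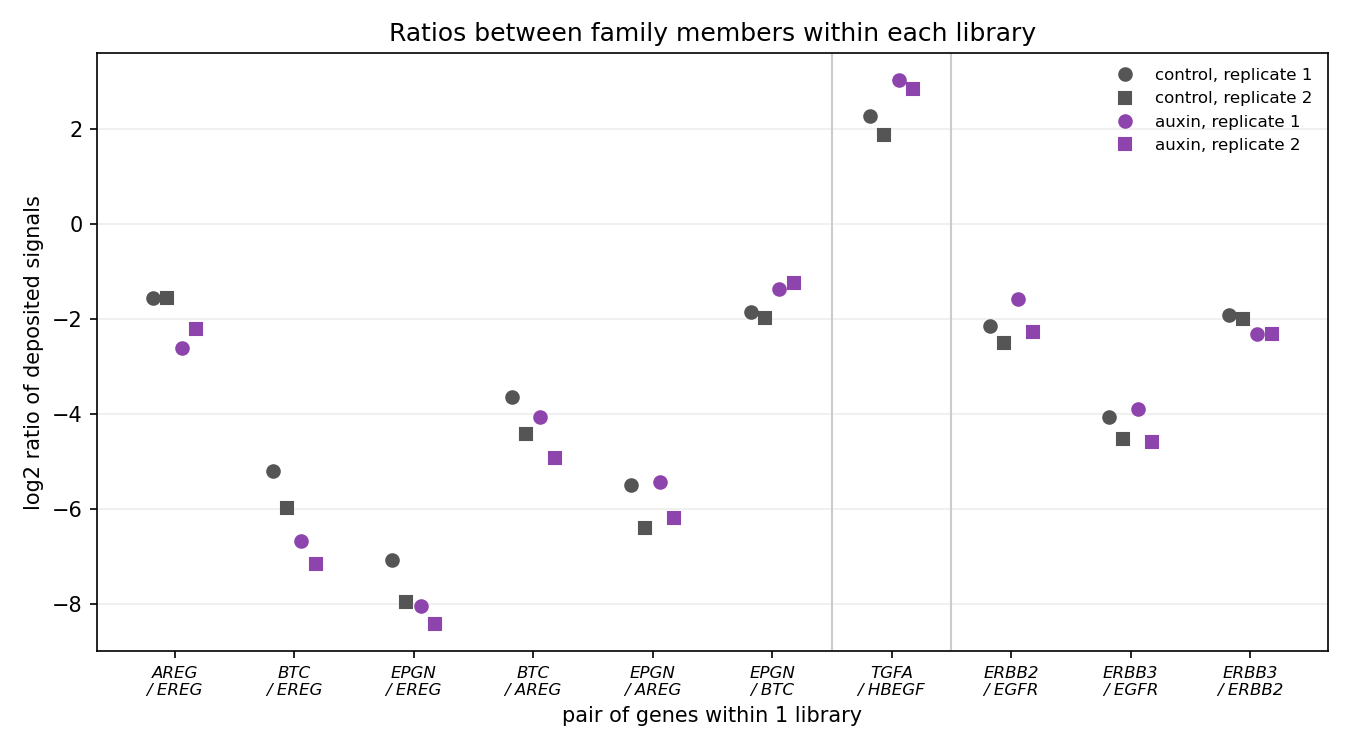
Log2 ratios of deposited signals for the 10 pairs of members within a class (horizontal axis), 1 point per library. The control points of AREG over EREG coincide at -1.56, above both auxin points (-2.60 and -2.23), and the auxin points of TGFA over HBEGF lie above the control points.

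The genes around the cluster were examined within 1 Mb on either side. Of 29 tested neighbours none was called by limma, and 2 had an unadjusted p under 0.05, both higher (6.9%, against 10.2% of all tested genes). Their median log2 fold change was -0.13, with 12 above 0 and 17 below. The nearest protein-coding genes were MTHFD2L, a mitochondrial folate enzyme 5.38 kb before EPGN, and PARM1, 139 kb after BTC. MTHFD2L averaged 4564 ± 7.89 in control, against 3902 ± 497 with auxin (SD, n = 2 each), with a log2 change of -0.23 (SE 0.15; limma, adjusted p = 0.692). PARM1 went from 2429 ± 334 to 2053 ± 194 (-0.24 ± 0.17 SE in log2 units, adjusted p = 0.743). In both, the auxin libraries lay below the controls, as in 19.6% of all tested genes. For PARM1 the margin was small, 2193 in control replicate 1 against 2191 in auxin replicate 2. On the deposited scale the groups of PARM1 overlapped (2191 and 2703 in control, 1563 and 2649 in auxin).

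Further out, CDKL2, a protein kinase gene, had values of 381 and 396 in control and 655 and 762 in auxin, so the auxin libraries were well above the controls. Its log2 fold change was 0.86 (SE 0.20; limma, adjusted p = 0.0951), and USO1, a vesicle-tethering factor, had 0.33 (SE 0.12, adjusted p = 0.322). G3BP2 had -0.17, RCHY1 -0.08, THAP6 -0.23, RASSF6 0.44 and ODAPH 0.52, with limma adjusted p-values from 0.658 to 0.96. The chemokine genes on the far side of MTHFD2L had low signal per gene and were uneven between replicates. CXCL8 had 103 and 38.9 in control and 295 and 43.8 in auxin. CXCL2 had 248 and 112 in control and 466 and 68.5 in auxin. Per kb not all were low, with CXCL2 at 115 and 51.7 in control and 216 and 31.8 in auxin. CXCL1, CXCL3 and CXCL5 had log2 fold changes of 0.31, -0.28 and -0.76, with standard errors of 0.51 to 0.62, and ALB was near the filter on low values in every library.

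**Figure D4:**
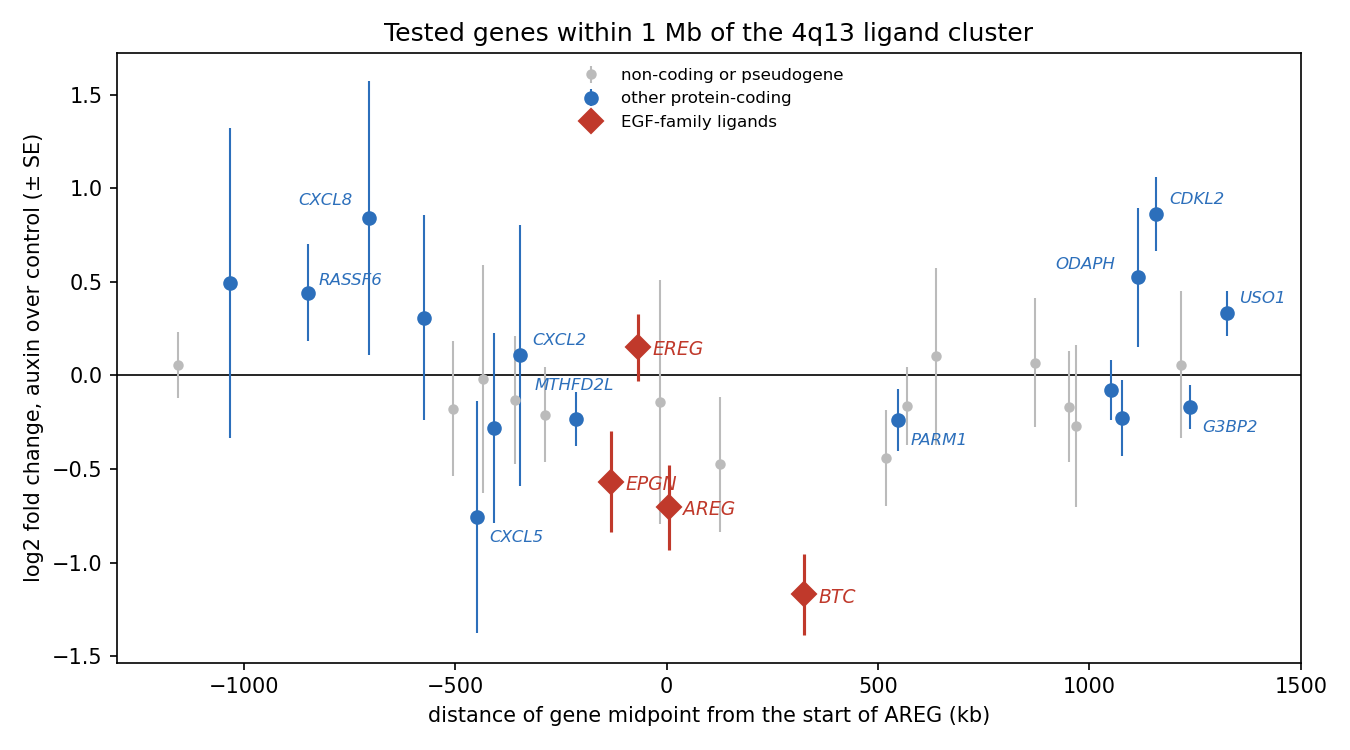
Limma log2 fold change (± SE) of every tested gene within 1 Mb of the cluster, against the distance of the gene's midpoint from the start of AREG in kb. BTC lies lowest, EREG sits above 0 between EPGN and AREG, and MTHFD2L and PARM1 on either side of the cluster are near -0.24.

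The nearest non-overlapping protein-coding genes of all members gave 12 genes that are no members, of which none was called by limma (adjusted p from 0.398 to 0.998) and 1 had an unadjusted p under 0.05. That gene was PA2G4, 1.05 kb after ERBB3, a proliferation-associated gene whose product binds ERBB3, with a log2 change of -0.36 (SE 0.14; limma, adjusted p = 0.398). PA2G4 shares part of its span with AC034102.2 on the same strand, so the changes of these genes may not be separate observations. Beside HBEGF, which was lower in both auxin libraries, PFDN1 and SLC4A9 had 0.10 and 0.11. Beside TGFA, which was higher in both, FAM136A and ADD2 had -0.08 and 0.19. EGFR was flanked by SEC61G (0.30) and LANCL2 (0.03), ERBB2 by PNMT (0.63, SE 0.77, with values from 4.09 to 25.4) and MIEN1 (0.03), and RPS26 before ERBB3 had -0.0023.

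Other genes of the pathway were counted from a list of 29 in 4 groups, all of which were tested. None was called by limma in either direction, and 5 had an unadjusted p under 0.05 (17.2%, against 10.2% of all tested genes), of which 2 were higher and 3 lower. Across the list the median log2 change was 0.03. The other ligands and ERBB4 (EGF, NRG1, NRG2, NRG3, NRG4) ranged from -0.21 to 0.18, and the smallest p was that of NRG2 (-0.21, SE 0.19, limma adjusted p = 0.84).

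Of the shedding genes, RHBDF1, an inactive rhomboid that guides ADAM17 to the surface, had values of 1323 and 1258 in control and 2227 and 1909 in auxin. Both auxin libraries were clearly higher, with a log2 change of 0.68 (SE 0.16; limma, adjusted p = 0.123). ADAM10, a sheddase of several EGF-family precursors, had 6513 and 6786 in control and 5147 and 5269.7 in auxin (-0.35 ± 0.13 SE in log2 units, adjusted p = 0.33). ADAM17, the main sheddase of AREG, EREG, HBEGF and TGFA, had a log2 change of 0.14 (SE 0.12, adjusted p = 0.835). ADAM10 and ADAM17 were picked for mention with their values known.

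Among the 7 adaptors and effectors, the exchange factor SOS1 had the smallest p (0.32 ± 0.14 SE in log2 units, limma adjusted p = 0.444). Of the 7 values 6 were above 0, as were 20236 of the 39464 tested genes. Among the 10 ligases and inhibitors, LRIG3 had the smallest p. It belongs to the LRIG family of membrane proteins that regulate ERBB receptors, and its signal was 1620 and 1385 in control and 1055 and 787 in auxin. Both auxin libraries were lower (-0.72 ± 0.20 SE in log2 units, limma adjusted p = 0.173). ERRFI1, which encodes the EGFR inhibitor MIG6, had 18819 and 26014 in control and 15386 and 15618 in auxin (-0.51 ± 0.15 SE in log2 units, limma adjusted p = 0.19), and was picked for mention with its values known.

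**Figure D5:**
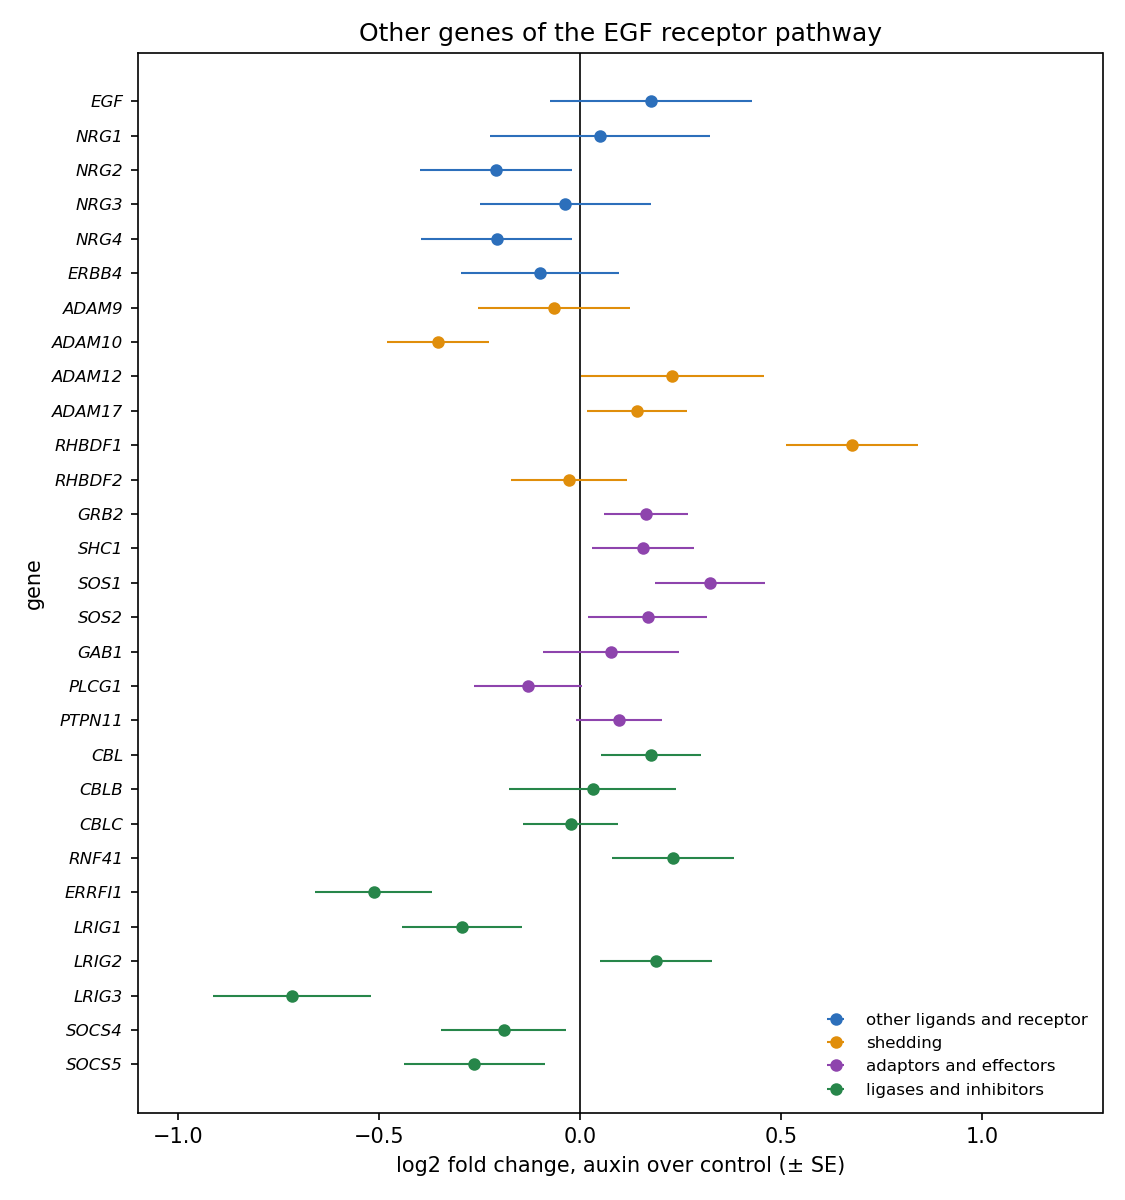
Limma log2 fold change of auxin over control (± SE, 2 against 2 libraries) for the 29 other pathway genes, coloured by group. RHBDF1 is the highest (0.68) and LRIG3 the lowest (-0.72), and none passed the adjusted threshold.

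The pattern over the 4 libraries was also set against 15994 protein-coding genes whose mean reached 50, by the Euclidean distance between centred log2 values. Nearest to AREG were CCNE2 (cyclin E2, distance 0.063), GMNN (geminin, 0.12) and DDAH1 (0.12). CCNE2 had values of 2485 and 3995 in control and 1680.3 and 2409 in auxin, with the same order of libraries as AREG. These 3 had log2 fold changes of -0.65, -0.70 and -0.69 (limma adjusted p from 0.213 to 0.347), and 28 genes lay within 0.2 of AREG. Nearest to EGFR were LRRIQ3 (0.031), FMN1 (0.047) and HOXC11 (0.058), and 111 genes lay within 0.2 of it. With 4 libraries such a likeness is a description.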

How the data were processed

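EU-labelled RNA was sequenced in 2 control and 2 auxin libraries, grouped and numbered by their titles. Per the labels' protocols, 200 µg of rRNA-depleted human RNA was mixed with 20 µg of fly mRNA before capture. The submitters' processing notes name Trimmomatic 0.39, Bowtie2 2.4.5, deepTools 3.5.1, hg38 and dm6, with no role. The authors deposited 1 table with a scaled signal per gene, not read counts, and how the signal was computed and scaled is not given in the sources used here. One control column with a misspelt name was assigned by its replicate number. Starts count from 0 and are printed 1 higher; 7 of 9 members had both ends equal to RefSeq on GRCh38.

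A gene was kept if at least 2 libraries reached 10 (per median library total) and all libraries together 15. Libraries were then scaled with trimmed means of M-values (30% and 5% trimmed). The log2(value + 1) was fitted in limma 3.58.1 (R 4.3.3) by lmFit and eBayes with a trend, with the Benjamini-Hochberg adjustment. The steps were tested on simulated data. The members, the lists and the settings were chosen with earlier results of these data known. Named genes were the members, their nearest neighbours, the protein-coding genes within 1 Mb of the cluster, pathway genes past the threshold or with the smallest p of their group, and the 3 genes most like AREG and EGFR. Figures used Python 3.11.15, pandas 2.3.3 and matplotlib 3.10.9. Alternatives were other scalings, filters, pseudocounts and a stricter threshold, the replicate number as a block, and leaving out each library.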

Additional observations from a re-analysis of the deposited data

How the results depend on the processing

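Over 12 alternatives each, the 9 members gave 108 values, of which 5 turned direction: ERBB3 with library size only (0.0041) and without control replicate 1 (0.13), EREG without control replicate 1 (-0.17), and EGFR without control replicate 2 (3.74e-04) and without auxin replicate 1 (0.26). Leaving out single libraries gave -0.17 to 0.48 for EREG, -0.40 to 0.26 for EGFR and -0.19 to 0.13 for ERBB3. The median of the 4q13 ligands kept its sign, and was -0.73 to -0.53 when single libraries were left out. That of the dispersed members turned with library size only (0.0041), and ranged from -0.012 to 0.26 when single libraries were left out (0.13 and 3.74e-04 without control replicates 1 and 2, 0.26 without auxin replicate 1). The count of members called, 1 of 9, became 0 with library size only, on the deposited scale and with no filter. It was also 0 with a mean of at least 50 and at an adjusted p under 0.01. Without single libraries the member that passed was not always BTC, so no count of members is given for those fits. The log2 fold change of BTC was -1.32 to -1.01 in them. The count of 289 genes became 55 on the deposited scale and 82 at an adjusted p under 0.01, which is stricter by construction, and 132 to 681 without single libraries. Without single libraries, 0 to 1 pathway genes and 0 to 2 neighbours at 4q13 were called. A group left with 1 library was assumed to vary like the other group. The other causes were not tested.

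Nothing in the labels ties equal replicate numbers to one day or batch, and a pairing cannot be judged from 2 pairs; differences between replicates 2 and 1 correlated across genes between the groups (Pearson's r 0.231, Spearman's rho 0.306). With the replicate block 4273 of the 39464 tested genes were called. They included 5 of the 9 members (BTC, AREG and HBEGF lower, TGFA and ERBB2 higher, limma adjusted p from 7.13e-10 to 0.0204). Called as well were 5 of the 29 pathway genes and 4 of the 29 neighbours at 4q13. These counts are a description, to be read beside the share of all tested genes. In that fit the prior degrees of freedom were infinite, so all genes shared 1 trend of spread. EdgeR and DESeq2 were not run, because the values are not counts. No read depth can be given, and precision is set by having 2 libraries a group.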

Other observations

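Between the control replicates, AREG and EREG differed by the same amount, replicate 2 over replicate 1 by 0.66 on the log2 scale in each, while BTC, EPGN, TGFA, ERBB2 and ERBB3 differed the other way, by -0.11, -0.23, -0.38, -0.22 and -0.31. Between the auxin replicates the differences were 0.55 for AREG, 0.17 for EREG and 0.65 for EGFR. The median absolute difference between replicates over all tested genes with a mean of at least 50 was 0.23 in control and 0.19 in auxin, and AREG, EREG, TGFA and ERBB3 in control, and AREG, EGFR, BTC and EPGN in auxin, exceeded it.

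On the deposited scale, whose factors are not explained by the labels, the auxin values of AREG were 3616 and 7846 and those of BTC 217 and 257, against 6941 and 11140.1, and 557 and 522, in control. AREG thus overlapped between the groups there, as did ERBB2 (6059 and 5271 in control, 5834 and 8351 in auxin), and BTC did not.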
